A study of Drosophila melanogaster with 3 samples.

Results

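The genes described here are 38 Drosophila melanogaster genes for Polycomb proteins, trithorax proteins, chromatin remodellers, GAGA-factor proteins and insulator proteins, taken by symbol from a fixed list, out of 13945 protein-coding genes. All 38 symbols were in the annotation. The list was chosen by their known roles and with the measured peaks of these same samples in view, so counts over the list are descriptions and carry no test. Each peak was given to the protein-coding gene whose transcription start site (TSS) was nearest to its summit, and 34 of 4336 thresholded peaks went to the listed genes. A gene with at least 1 such peak is called bound below.

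The peaks come from chromatin immunoprecipitation and sequencing (ChIP-seq) of tap, a basic helix-loop-helix transcription factor of the neurogenin family. The material was whole embryos of 6 to 16 h per the source label, males and females pooled, from a stable transgenic line in which tap carries eGFP at its C-terminus, and the chromatin was recovered with an antibody to GFP. There was 1 group of 3 biological replicates and no second genotype or age, so no contrast between groups exists; a control alignment entered the peak calls per the deposited notes and its library was not analysed here. The promoter that drives the fusion and the tap-positive cells are not described in the sources used here, and a peak list of whole embryos does not tell in which cells a site was bound.

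The 5 deposited lists are a list of 30000 peaks for the pooled replicates, its 4336 strongest peaks that passed the authors' reproducibility threshold (the thresholded peaks), and a list for each replicate. They hold a signal per peak and no read counts, so depth is unknown, and a signal is compared only as a rank within its list, with rank 1 the strongest.

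Polycomb group proteins keep developmental genes silent, in complexes that modify histones (PRC2) or compact chromatin and ubiquitinate histones (PRC1), and trithorax group proteins keep genes active. GAGA factor and its partners bind GA-rich DNA and open chromatin at promoters and at Polycomb response elements. Insulator proteins bind boundaries between chromatin domains, many of them at gene promoters.

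The sequences under 8 of the strongest summits are shown because the values below turn on them: the 4 strongest summits within 500 bp of a TSS of the listed gene itself (2 of ph-p, Chro, Cp190), the strongest distal summits (Trl, trx, osa) and the summit between the neighbouring genes ph-d and ph-p. Each is the plus strand of dm6, 5′ to 3′, 201 bases centred on the summit, from the RefSeq copy of that assembly. Capitals mark 4 of the words searched, on either strand: CGATA is the core of sites of the insulator protein BEAF-32, GCCAT is the core of sites of the Polycomb protein Pho, while TGGCAAC and CACTG are given without a role. The form CAGTG is the last of these on the other strand.
ph-p, rank 6, chrX:2137244-2137444: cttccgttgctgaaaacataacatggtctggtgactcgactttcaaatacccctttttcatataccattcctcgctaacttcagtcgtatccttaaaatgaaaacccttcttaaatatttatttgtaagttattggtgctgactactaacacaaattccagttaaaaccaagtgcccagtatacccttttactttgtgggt
Trl, rank 16, chr3L:14759411-14759611: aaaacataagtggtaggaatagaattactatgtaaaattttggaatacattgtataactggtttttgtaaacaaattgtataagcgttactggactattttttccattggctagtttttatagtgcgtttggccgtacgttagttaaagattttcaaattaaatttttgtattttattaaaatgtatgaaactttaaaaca
Chro, rank 20, chr3L:22878802-22879002: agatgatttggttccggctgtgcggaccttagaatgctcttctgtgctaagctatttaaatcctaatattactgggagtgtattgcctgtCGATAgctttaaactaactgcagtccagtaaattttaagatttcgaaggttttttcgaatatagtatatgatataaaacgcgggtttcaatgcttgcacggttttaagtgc
ph-p, rank 31, chrX:2137822-2138022: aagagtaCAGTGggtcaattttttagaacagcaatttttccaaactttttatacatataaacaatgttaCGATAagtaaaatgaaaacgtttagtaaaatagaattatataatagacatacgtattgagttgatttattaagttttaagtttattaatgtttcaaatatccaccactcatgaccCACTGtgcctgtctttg
trx, rank 74, chr3R:14283760-14283960: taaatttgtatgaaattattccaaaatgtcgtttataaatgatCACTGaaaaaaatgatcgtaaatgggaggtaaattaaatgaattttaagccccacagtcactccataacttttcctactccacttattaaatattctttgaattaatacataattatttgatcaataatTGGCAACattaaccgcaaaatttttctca
Cp190, rank 78, chr3R:15275280-15275480: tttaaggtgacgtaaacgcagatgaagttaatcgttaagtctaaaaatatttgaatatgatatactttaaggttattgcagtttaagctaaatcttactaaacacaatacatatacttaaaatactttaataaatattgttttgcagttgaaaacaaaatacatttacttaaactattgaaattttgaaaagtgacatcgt
osa, rank 98, chr3R:17704303-17704503: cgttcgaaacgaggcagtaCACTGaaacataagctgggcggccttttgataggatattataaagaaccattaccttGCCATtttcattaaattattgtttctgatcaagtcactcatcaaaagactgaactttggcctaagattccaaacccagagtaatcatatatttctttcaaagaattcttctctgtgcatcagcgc
ph-d, rank 180, chrX:2124005-2124205: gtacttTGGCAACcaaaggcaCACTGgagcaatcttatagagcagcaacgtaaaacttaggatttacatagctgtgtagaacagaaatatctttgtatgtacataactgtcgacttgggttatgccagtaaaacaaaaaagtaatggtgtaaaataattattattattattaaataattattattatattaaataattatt

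These stretches are mostly A and T and hold few of the words in capitals. The strongest, at ph-p, held none of the words in capitals, and neither did those of Cp190 and the Trl intron. The general E-box CANNTG, bound by bHLH proteins, was searched as well but is not in capitals. The strongest ph-p sequence holds it as CAAGTG and that of Cp190 as CAGATG and CAGTTG, while that of the Trl intron does not hold it. The words and the base composition of all 34 summits are counted further on.

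Peaks were found at 14 of the 38 genes (36.8%), where 19.0% of all protein-coding genes had one. In the 4336 strongest peaks of replicates 1, 2 and 3 the counts were 12, 15 and 15 of 38, beside 19.2%, 19.5% and 19.1% of all genes. In replicate 1 these were the 14 genes without CTCF and Cp190. Replicate 2 lacked the same genes and added brm, Dref and pita, and replicate 3 lacked CTCF and E(z) and added lolal (rank 3691), Sfmbt (rank 2722) and mod(mdg4) (rank 2482). The brm and Dref peaks of replicate 2, at ranks 247 and 1641, were at sites found in every replicate. In the thresholded list these sites went to the neighbours Arl1 and RpL13. The Cp190 site was also found in every replicate, but nearer to CG4338 in replicates 1 and 2. The mean over replicates was 36.8% ± 4.56 (SD, n = 3) for the listed genes and 19.3% ± 0.239 for all genes. Several peaks at 1 gene were also more frequent in the list. Of the 38 genes 7 (18.4%) had 2 or more, against 6.01% of all genes, and the bound genes of the list held 2.43 peaks each where all bound genes held 1.64.

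Many peaks of the list were strong. Of the 34, 14 (41.2%) were among the 867 strongest of all 4336 thresholded peaks and 8 were among the strongest 100 of the 4336. Their median rank was 1715, against 2168.5 for all thresholded peaks. Taking only the best peak of each bound gene, the median rank was 139, against 1732 for the best peaks of all bound genes. The best was taken from more peaks at the listed genes, 2.43 per bound gene against 1.64, which by itself favours a better rank. What part this had in the difference was not tested.

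**Figure D1:**
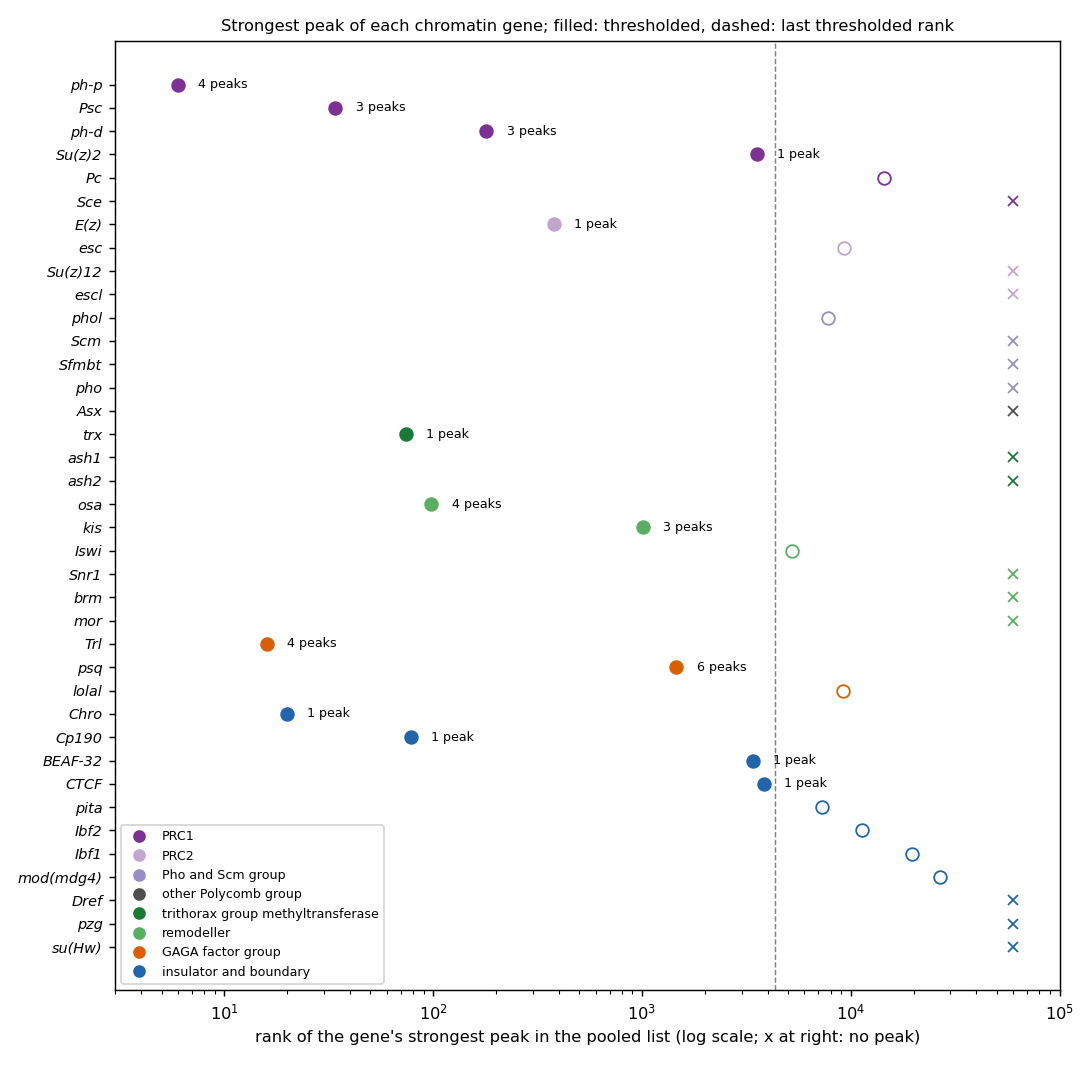
Each line is 1 of the 38 genes, coloured by role, and its point is the rank of its strongest peak in the pooled list on a log axis, filled where the peak is thresholded, with crosses for genes with no peak in that list and the number of thresholded peaks beside the point. The 14 filled points run from rank 6 (ph-p) to rank 3829 (CTCF), and 15 genes have a cross.

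Of the 6 listed PRC1 genes 4 had a thresholded peak, with 11 summits in 10 intervals. ph-p and ph-d, neighbouring copies of the polyhomeotic gene, code for the PRC1 subunit whose polymerising domain brings Polycomb sites together. They lie 2923 bp apart on the X chromosome and held 7 summits between them, 4 nearest to ph-p and 3 to ph-d.

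The strongest peak of the list was at ph-p, at chrX:2137171-2137529, 489 bp upstream of an internal TSS. Its signal was 1120, 1115 and 1121 in replicates 1, 2 and 3, and 3309 in the thresholded list, at ranks 7, 7 and 3 and rank 6. It was among the 7 strongest peaks in every list. A second ph-p peak at chrX:2137689-2138090, 449 bp inside the gene from its outermost TSS, had signals of 780.8, 897.3 and 378.2 in the replicates, at ranks 26, 20 and 74, and rank 31 in the thresholded list. The other ph-p peaks, 1271 and 2224 bp downstream of the nearest TSS in introns, ranked 425 and 705 and were in every replicate, at ranks 412, 472 and 511 and at ranks 949, 947 and 457. All 4 were thus among the 4336 strongest peaks of each replicate.

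At ph-d the strongest summit lay 819 bp upstream of its TSS, in the gap between the copies, at chrX:2123946-2124395. It ranked 94 and 129 in replicates 1 and 2 and 1724 in replicate 3, with signals of 482.8, 441.8 and 71.54, and 180 in the thresholded list. The same interval was listed again with a summit 1020 bp upstream, at thresholded rank 988, which had no match within 200 bp in replicate 3. The 2 summits lie in 1 interval, so they are not separate sites. The last, 43 bp upstream of the TSS, ranked 3557 in the thresholded list and 8298, 4411 and 1986 in the replicates. Since the genes are copies, 36-base stretches that occur again on the 6 chromosome arms used were counted, without the Y chromosome or unplaced sequence. They made up 4.32% of the strongest ph-p interval, 12.3% of the ph-d interval at its TSS and 0 of the other 5 listings at these genes.

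Psc and Su(z)2 code for related RING-finger proteins of PRC1 and are neighbours too, with 15506 bp between them on 2R. Psc had 3 peaks. The strongest, at chr2R:12985019-12985387, was 4204 bp upstream of Psc and 169 bp from the TSS of the noncoding gene lncRNA:CR44339. Its signals of 828.9, 870.6 and 222.9 placed it at ranks 20, 21 and 228 in the replicates and 34 in the thresholded list (signal 1923). Another lay in an intron 5075 bp downstream of the nearest Psc TSS, at ranks 253, 402 and 168 and thresholded rank 238, and the weakest lay 4 bp from a Psc TSS, at ranks 3768, 2595 and 2451. The Su(z)2 peak was 18645 bp downstream of that gene's TSS, beyond its 3′ end, at ranks 3300, 7958 and 1512. The lone Su(z)2 peak was thus far from its gene and outside the strongest 4336 of replicate 2. Su(z)2 still counted among the genes of replicate 2 through other peaks, the best at rank 3452.

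The remaining PRC1 genes had no thresholded peak. Pc codes for the chromodomain subunit that binds methylated histone H3, and its best pooled peak, 10 bp from the TSS, was at rank 14349. Sce codes for the RING-finger ubiquitin ligase, and it had no peak in the pooled list.

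**Figure D2:**
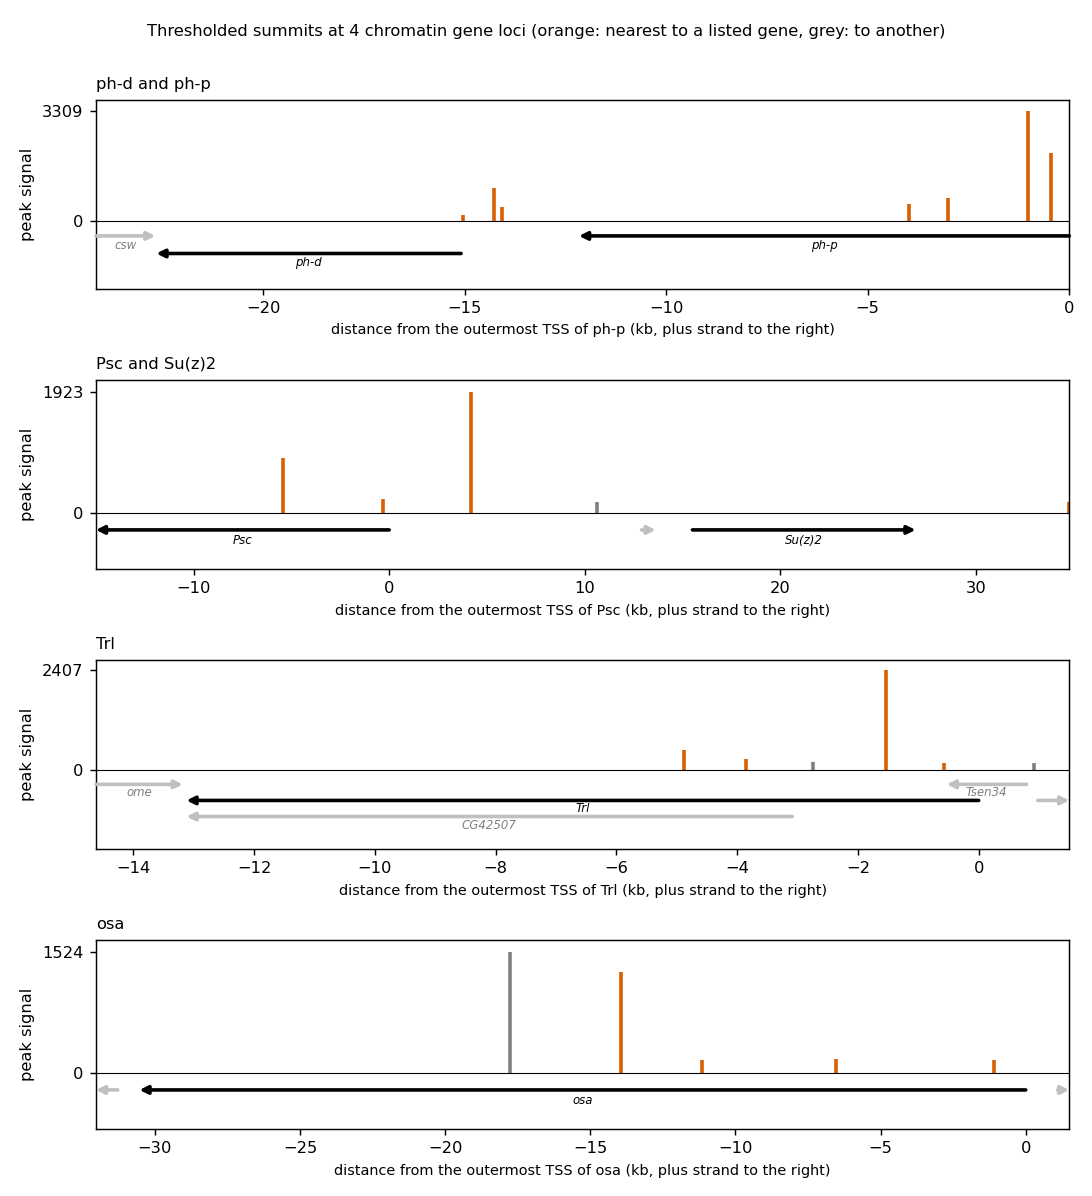
Thresholded summits (bars, height is signal in the thresholded list) and genes (arrows in the direction of transcription) at the ph-d and ph-p, Psc and Su(z)2, Trl and osa loci, by distance from the outermost TSS in kb. Orange summits are nearest to a listed gene and grey ones to another gene, such as the one of signal 1524 inside osa.

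PRC2, which methylates histone H3, had 1 bound gene among 4. E(z), its catalytic subunit, had a promoter peak at chr3L:10637851-10638188, 74 bp downstream of the TSS and also within 500 bp of a TSS of Cnep1r2. Its signal was 350.9 and 328.6 in replicates 1 and 2 and 14.33 in replicate 3, at ranks 215, 272 and 24398, and its thresholded rank was 380. The replicates did not give the same picture here: it was strong in replicates 1 and 2 and far weaker in replicate 3. In replicate 3 the matching summit went to another gene, and no peak went to E(z). esc, a WD-repeat subunit, reached rank 9297 in the pooled list, and its relative escl and the zinc-finger subunit Su(z)12 had no pooled peak.

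The Pho and Scm genes and Asx had none. pho and phol code for the DNA-binding proteins of the Polycomb group, Sfmbt for the partner of Pho, and Scm for a further Polycomb protein; 0 of these 4 had a thresholded peak, and the best pooled peak was that of phol at rank 7773, 181 bp from its TSS. Asx, which codes for the partner of a histone H2A deubiquitinase, had no pooled peak.

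Among the 3 trithorax group methyltransferase genes, trx alone had a thresholded peak. trx codes for a histone H3 methyltransferase. Its peak was in an intron, 3043 bp downstream of the nearest TSS, at chr3R:14283727-14284016, with signals of 493.5, 495.6 and 420.6 in the replicates. These were ranks 88, 99 and 57, and the thresholded rank was 74, so it was strong and even across replicates. ash1, another histone methyltransferase, and ash2, a subunit of methyltransferase complexes, had no pooled peak.

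Remodeller genes had peaks at 2 of 6, with 7 peaks between them. osa, which codes for the DNA-binding subunit that marks a form of the Brahma complex, had 4. The strongest, at chr3R:17704257-17704558, lay in an intron 13947 bp from the nearest osa TSS and 708 bp from the TSS of the noncoding gene lncRNA:CR46035. Its signals of 463.1, 450.2 and 360.9 ranked it 106, 123 and 88 in the replicates and 98 in the thresholded list. The other osa peaks were far weaker, at ranks 3580, 3899 and 4158, and the best of these had no match in replicate 1. A stronger peak inside the osa gene body, of signal 1524, was nearer to the TSS of CG31249 and is not among the 34.

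kis, a gene for a chromodomain helicase of the trithorax group, had 3 peaks. The best ranked 1138, 1331 and 919 in the replicates and 1012 in the thresholded list (signal 411.0), 16 bp from the TSS of lncRNA:CR44222 inside kis. The others ranked 1968, with no match in replicate 3, and 2200. None of the kis summits was within 500 bp of a kis TSS.

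Of the remaining remodeller genes, Iswi, an ATPase gene, had the closest miss at pooled rank 5221 (signal 134.2), 23 bp from its TSS. mor and Snr1, subunits of the Brahma complex, and brm, its ATPase, had no pooled peak assigned. The assignment matters for brm. A peak at chr3L:15982848-15983151 lay 136 bp from the brm TSS and 130 bp from that of Arl1, to which it went, at ranks 171, 247 and 151 in the replicates and 168 in the thresholded list (signal 1016). A strong summit therefore stood in the promoter window of brm although brm counts as unbound.

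Genes of the GAGA-factor group had 10 peaks, at 2 of 3 genes. Trl codes for GAGA factor. Its strongest peak was in an intron at chr3L:14759341-14759713, 1538 bp downstream of the nearest TSS, with signals of 899.3, 1101 and 410.6. It ranked 16, 9 and 61 in the replicates and 16 in the thresholded list (signal 2407), and was the strongest distal summit of the list. Its other peaks ranked 749, 1994 and 3957, and that at rank 1994, 135 bp from an internal TSS, stood at 7645, 5167 and 546 in the replicates, higher in replicate 3 than in the others. A further summit, at rank 3041, was 335 bp from TSSs of both Trl and CG42507 and went to CG42507.

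psq, a gene for another GA-binding protein with a BTB domain, had the most peaks of any listed gene, 6, none of them within 500 bp of a psq TSS. They ranked between 1463 and 4176, with signals of 157.3 to 322.4. The best ranked 1384 and 1220 in replicates 1 and 2 and 7605 in replicate 3. psq spans 59393 bp, the longest gene of the list, and all its peaks were outside the 867 strongest. lolal, a gene for a short BTB protein that partners with GAGA factor, was without a thresholded peak, its best being at pooled rank 9190.

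Insulator and boundary genes had peaks at 4 of 11, each with 1 peak, all at promoters. Chro codes for a chromodomain protein of interbands. Its summit at chr3L:22878737-22879068, 82 bp downstream of the TSS and within 500 bp of a TSS of Ssl1, had signals of 755.8, 769.2 and 686.3, ranks 32, 28 and 15, and thresholded rank 20 (signal 2223). Cp190 codes for a zinc-finger cofactor that several insulator proteins share. Its summit at chr3R:15275225-15275565, 139 bp upstream of the TSS and close to the divergent gene CG4338, had signals of 495.5, 577.8 and 341.5, ranks 86, 66 and 99, and thresholded rank 78 (signal 1403). Both were strong in all 3 replicates, although in replicates 1 and 2 the called summit was nearer to CG4338 than to Cp190.

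BEAF-32 and CTCF, genes for DNA-binding insulator proteins, had weak promoter peaks. That of BEAF-32, 83 bp upstream of its TSS, ranked 3675 and 2523 in replicates 1 and 2, had no match within 200 bp in replicate 3, and had thresholded rank 3392. BEAF-32 still counted among the genes of replicate 3 through other peaks, the best at rank 1605. That of CTCF, 75 bp upstream, ranked 4473, 5176 and 5558 in the replicates, so it was outside the strongest 4336 of each, and had thresholded rank 3829. Repeated 36-base stretches made up 7.33% of the CTCF interval.

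The other 7 insulator and boundary genes had no thresholded peak. Their best pooled ranks were 7241 for the zinc-finger gene pita, 11346 and 19743 for the neighbours Ibf2 and Ibf1, which code for BED-finger proteins, and 26763 for mod(mdg4), which codes for BTB proteins of the gypsy insulator. The genes su(Hw), whose protein binds that insulator, pzg, a zinc-finger gene, and Dref, whose protein binds TATCGATA, had no pooled peak assigned. As at brm, shared promoters were given to neighbours: a summit 55 bp from the Dref TSS went to RpL13 (29 bp; rank 909; signal 441.4; ranks 950, 1641 and 518 in the replicates). A summit 224 bp from pita went to Dcp-1 (14 bp; rank 2791; signal 208.0).

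When a gene instead counted as bound if a summit lay within 500 bp of any of its TSSs, 12 of 38 (31.6%) were bound, against 13.9% of all genes. These 12 include brm, Dref and pita and leave out trx, osa, kis, psq and Su(z)2. In the pooled list, which has no reproducibility threshold, 23 of 38 (60.5%) had a peak, against 48.3% of all genes. Of the 24 genes without a thresholded peak, 9 had a pooled one and 15 had none. The weakest members inside the threshold were osa at a signal of 157.7 and psq at 157.3, and the strongest outside were kis at 144.2, BEAF-32 at 142.4 and Su(z)2 at 142.2.

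**Figure D3:**
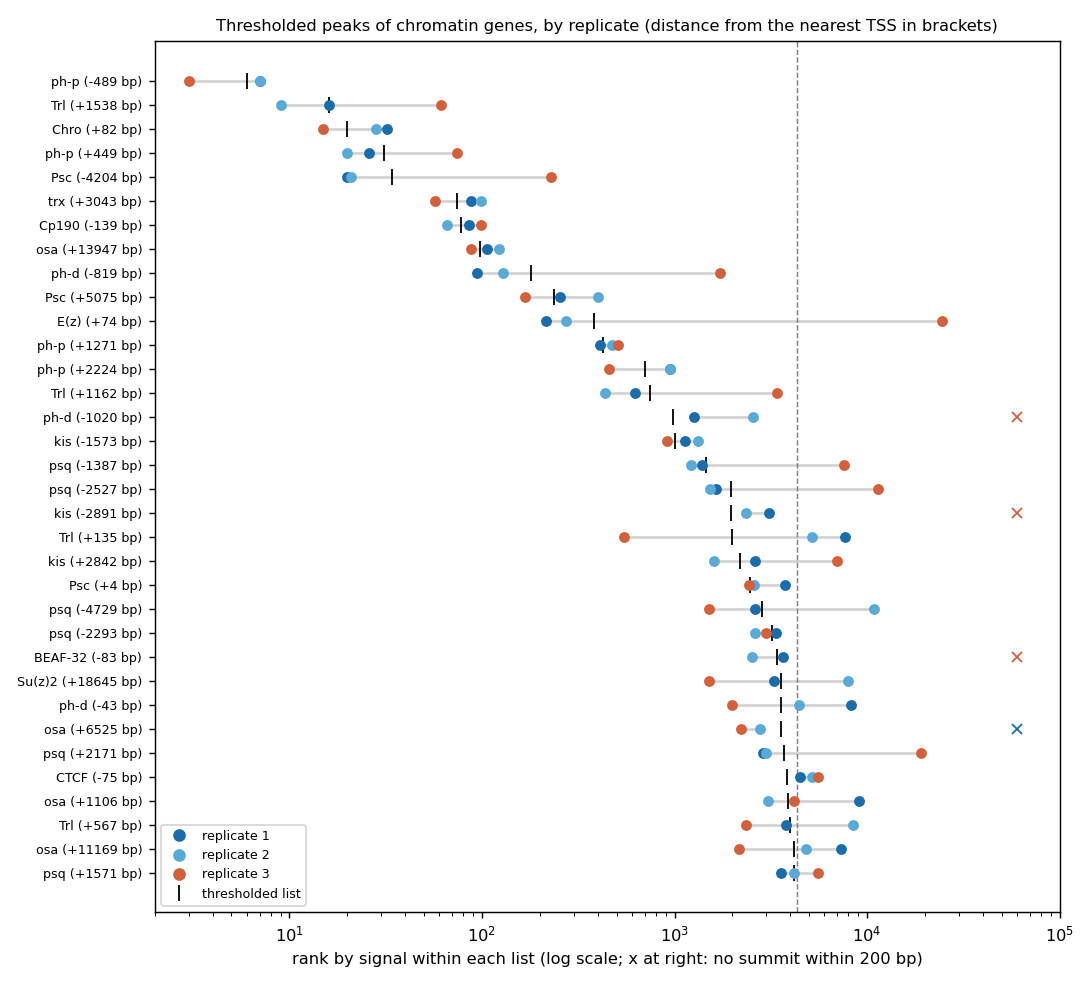
Rank of each of the 34 peaks within replicates 1, 2 and 3 (points) and within the thresholded list (bars) on a log axis, with crosses where no summit lay within 200 bp and the distance from the nearest TSS in brackets. The points of ph-p at the top lie close together, while those of E(z) and ph-d spread to the right in replicate 3.

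The peaks of the list were found across replicates about as often as other thresholded peaks. Of the 34, 33, 34 and 31 had a summit within 200 bp in replicates 1, 2 and 3, and 30 in all. Among the 4336 strongest peaks of the replicates were 82.4%, 79.4% and 70.6% of them, against 82.9%, 81.3% and 67.2% of all thresholded peaks. In every replicate's strongest peaks were 16 of the 34 (47.1%), against 49.4% of all. The peaks with no match were those of ph-d (rank 988), kis (rank 1968) and BEAF-32 in replicate 3, and osa (rank 3580) in replicate 1.

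Of the 34 summits 12 (35.3%) were within 500 bp of an annotated TSS of any kind, 18 (52.9%) were in introns and 4 (11.8%) were intergenic, against 41.2%, 39.4% and 16.6% of all thresholded peaks. None was in a coding exon or untranslated region outside those windows. The strongest peaks of the replicates gave a promoter share of 34.9% ± 5.61 (SD, n = 3) for the listed genes. By role, promoter summits were 5 of 11 for PRC1, 1 of 7 for the remodellers, 1 of 10 for the GAGA-factor group and 4 of 4 for the insulator genes; the E(z) summit was at a promoter and the trx summit was not. The counts per role are small and were not tested against each other.

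Peaks of the list were concentrated at genes with much sequence around them. For each gene the length of genome closer to its TSSs than to those of other protein-coding genes was taken as its territory, and genes were ranked by it into 4 classes of nearly equal size. In the class with the longest territories 10 of 11 listed genes had a peak (90.9%), against 36.2% of all genes there. In the other classes, from the shortest up, the counts were 0 of 6, 3 of 13 and 1 of 8, against 8.66%, 12.6% and 18.4% of all genes. Over those 3 classes the list had 4 of 27 (14.8%), close to the 13.2% of all genes, so the excess over the background sat in the longest class.

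The 10 bound genes of the longest class were ph-p, ph-d, Psc, Su(z)2, trx, osa, kis, Trl, psq and BEAF-32, and they include all 7 with 2 or more peaks. pho, on chromosome 4, was the 1 gene of that class without a peak. The bound genes elsewhere were E(z), Chro, Cp190 and CTCF, all bound at the promoter. The median territory was 14576 bp for listed genes with a peak and 3377 bp for those without, against 9223 and 3709 bp for all genes. Among all genes with territories in the range of the 11, 1101 of 3142 had a peak.

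**Figure D4:**
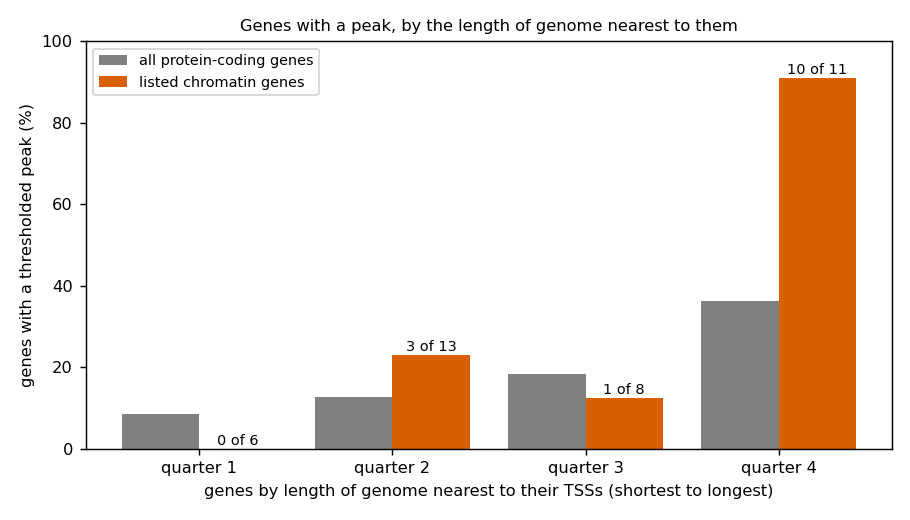
Percent of genes with a thresholded peak (vertical axis) in 4 classes of territory (shortest at the left), the length of genome nearest to a gene's TSSs, for all protein-coding genes (grey) and the 38 listed genes (orange, with counts). The listed genes stand at 10 of 11 in the longest class and at 0 of 6, 3 of 13 and 1 of 8 in the others.

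A further list of 90 symbols of chromatin genes was written down beside the 38, and 82 were matched. Of these, 15 (18.3%) had a thresholded peak, beside 19.0% of all genes, and the strongest peaks of the replicates gave 19.9% ± 4.93 (SD, n = 3). In the class of the longest territories the count was 8 of 17 (47.1%), and over the other classes 7 of 65 (10.8%). The strongest were at Kdm2, a histone demethylase gene (signal 1363, 6 peaks), nej, which codes for the CBP acetyltransferase (1044), the kinase gene JIL-1 (1016) and the ATPase gene pont (869.3). They were followed by the acetyltransferase gene Gcn5 (600.3), tna (559.6, 6 peaks), the methyltransferase gene gpp (549.7, 5 peaks) and the remodeller gene Ino80 (506.4). The difference between the lists was not tested, since both were written with these peaks in view.

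Summits of the listed genes were low in GC. The 100 bp around the 34 summits held 33.5% GC on average, and windows centred 500 bp to each side 43.6%, against 32.4% and 42.6% for all thresholded peaks. GC was below the flanks at 25 of 34, and at 79.6% of all peaks. The 14 among the 867 strongest had a mean of 28.3%, from 20.0% at the second ph-p peak to 33.0%, and the other 20 had 37.2%, from 18.0% to 57.0%. For all peaks these means were 28.7% and 33.4%.

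**Figure D5:**
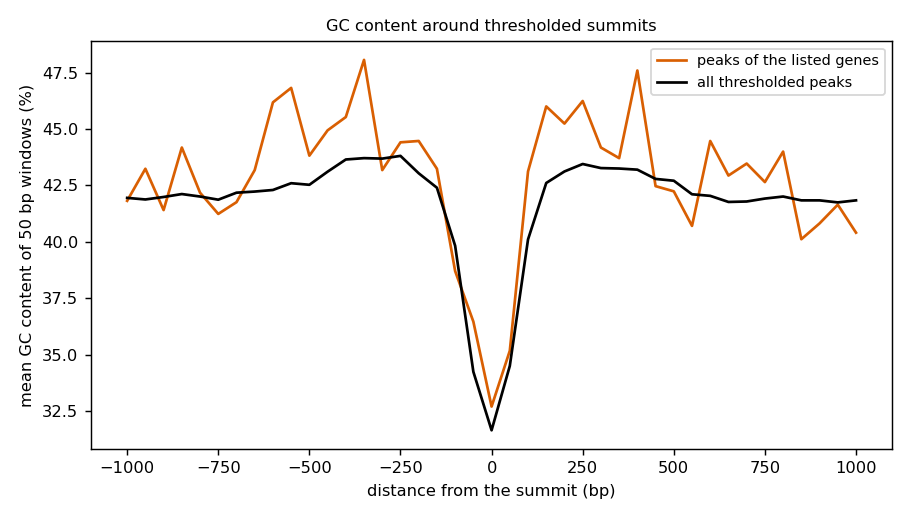
Mean GC content of 50 bp windows (vertical axis, starting above 0) by distance from the summit in bp, for the 34 peaks of the listed genes (orange) and all 4336 thresholded peaks (black). Both lines dip at the summit, to about the same level.

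Replicate 3 ordered these peaks differently by base composition. For each peak found in every replicate, its rank in replicate 3 was set against the geometric mean of its ranks in replicates 1 and 2. The log2 of this ratio, negative where replicate 3 ranked a peak better, was lower at higher GC content, with Spearman's rho of -0.58 over 30 peaks of the list and -0.41 over 3898 of all thresholded peaks. Peaks share libraries and depth, so these coefficients only describe the lists. Of the list's peaks with at least 35% GC, 7 of 10 ranked better in replicate 3 (68.2% of all such peaks), and of those below, 8 of 20 (42.4% of all). Among the AT-rich ones were E(z) with 25.0% GC, at rank 24398 in replicate 3, and the strongest ph-d peak with 32.0%, at rank 1724, while the Su(z)2 peak with 54.0% had its best rank there. What part base composition had in those ranks was not tested.

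Words were searched within 100 bp of each summit on both strands, and the same windows were searched at 19251 TSSs of protein-coding genes. GAGAG, the core of GAGA-factor sites, was at 8 of 34 summits (23.5%), 36.8% of their flanks, 23.2% of all thresholded summits and 25.0% of promoters. Within 50 bp it was at 14.7% of the list's summits and 10.7% of all. It was at 1 of the 14 summits among the 867 strongest peaks and at 7 of the other 20, against 22.6% and 23.3% of all peaks. The strongest Trl peak, like every Trl and psq peak, held no GAGAG. The richest were the Su(z)2 peak with 10 overlapping or separate copies, osa (rank 3899) with 6 and Psc (rank 2459) with 4.

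The summits with GAGAG had a higher mean GC content, 45.4% against 29.9% for the rest, but the sets overlapped: the GAGAG summits of kis (rank 1012) and Psc (rank 238) had 26% and 28% GC, and a psq summit without the word (rank 2839) had 46.0%. In replicate 3, 7 of the 7 found in every replicate ranked better than in the other pair, against 58.2% of all thresholded peaks with GAGAG. Of those without the word 8 of 23 did, against 49.9% of all. Both AT-rich GAGAG summits ranked better in replicate 3, kis at 919 after 1138 and 1331 and Psc at 168 after 253 and 402. Summits without the word and with at least 35% GC went both ways. The psq summit at rank 1463, with 43.0% GC, ranked worse there, at 7605 after 1384 and 1220. The psq summit at rank 2839, with 46.0% GC, ranked better, at 1503 after 2622 and 10928. So did the Trl summit at rank 1994, with 39.0% GC, at 546 after 7645 and 5167. The parts of the word and of base composition in these ranks were not tested.

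CGATA, the core of BEAF-32 sites, was at 14.7% of the 34 summits, 22.1% of flanks, 24.7% of all summits and 37.1% of promoters. The longer TATCGATA, the site of Dref, which contains CGATA, was at the CTCF summit alone (2.94%, against 1.96% of all summits and 6.45% of promoters). GCCAT, the core of Pho sites, was at 23.5% of the summits, 45.6% of their flanks, 24.7% of all summits and 30.8% of promoters. GTCACAC and TGGCAAC were each at 5.88% of the summits, against 2.84% and 4.27% of all, and AAAAAA was at 32.4%, against 43.9%. Since 1 of 34 summits is 2.94%, the shares of TATCGATA, GTCACAC and TGGCAAC rest on 1, 2 and 2 summits.

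Of the words bound by bHLH proteins, CANNTG, the general E-box, was at 14 of 34 summits (41.2%), 70.6% of their flanks, 59.8% of all summits and 64.0% of promoters. Of its forms, CAGCTG was at 1 summit, the weakest of ph-d (2.94%, against 7.24% of all), and CATATG at 5.88%, those of BEAF-32 and osa (8.35% of all). A word seen in the printed sequences and added for that reason, CACTG, was at 17 of 34, 33.8% of flanks, 43.6% of all summits and 37.0% of promoters. It stands at both edges of the second ph-p sequence above. Within 50 bp of the summit its share was 11.8%, against 16.5% of all summits, so it lay mostly to the sides. A match to a word is a string of letters and says nothing of what was bound.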

How the data were processed

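The authors deposited peak lists in dm6: 3 replicate lists and 1 pooled list, each made with a control alignment per the deposited notes, and a list thresholded by irreproducible discovery rate. Each peak has a signal and, by the file format, a −log10 q-value, both deposited by the authors as their caller gave them. Which aligner, caller and threshold the authors used is not given in the sources used here. Signals differ in scale between lists and were ranked within a list.

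Summits were assigned to the nearest protein-coding TSS of Ensembl release 115 (annotation 6.54); sequence was the RefSeq copy of the same assembly. A promoter was within 500 bp of an annotated TSS, and summits within 200 bp matched. Python 3.11.15, numpy 2.4.6, pandas 2.3.3, scipy 1.17.1 and matplotlib 3.10.9 were used, and the scripts were tested on simulated data. The members, both gene lists and the words were chosen with earlier results of these data known, and CACTG after the sequences were seen. The rule for named genes gave values in every list for members with a peak among the 867 strongest, and rank and position for the rest. Means ± SD are over 3 replicates. The labels call the replicates biological without describing separate collections, so the SD may be partly technical.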

Additional observations from a re-analysis of the deposited data

How the results depend on the processing

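Of 50 alternative values for 9 quantities, 11 moved: a count by more than 1.5 times, or another value by at least 1 SD over the replicates (11.6 percentage points for GAGAG, 5.61 for the promoter share). The count of listed genes with a peak was 14 and became 23 with all pooled peaks (48.3% of all genes). Without each replicate in turn it was 10 to 12, where 12.1% to 14.8% of all genes had a peak, and with gene bodies extended by 1000 bp it was 17 (44.7%, against 22.7% of all genes). The count of other chromatin genes, 15, became 25 with extended gene bodies (30.5%, against 22.7% of all genes) and 28 with all pooled peaks (34.1%, against 48.3%), so it stood above or below the share of all genes by the setting. The promoter share of 35.3% became 29.4% with a 200 bp window, 47.1% with 1000 bp and 29.4% with protein-coding TSSs only. The median rank of 1715 became 139 with the strongest peak of each gene and 209 to 705 without each replicate in turn, a setting that keeps only peaks strong in the other pair. Within 50 bp of the summit GAGAG went from 23.5% to 14.7%, and CACTG from 17 of 34 summits to 11.8%. CACTG, and the count of listed genes with a peak among the strongest of all 3 replicates, were added after seeing the data. That count was 10 (26.3%, against 11.2% of all genes). Depth is unknown, so weak peaks of single replicates cannot be told from peaks missed for want of reads. No paired analysis was possible because there is 1 group.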
